A study of Rattus norvegicus with 47 samples.

Results

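Reads from the nuclear tRNA genes of valine, aspartate, lysine and histidine were examined in the urine of rats fed a standard diet (SD) or a high-fat diet (HFD). The members were chosen by name: rows of the urine small RNA table annotated as tRNA whose name starts with Val, Asp, Lys or His after the tRNA prefix, which gave 42 of the 507 rows and of the 240 nuclear tRNA rows. They cover 7 anticodons, namely Val-AAC (6 rows), Val-CAC (6), Val-TAC (3), Asp-GTC (6), Lys-CTT (9), Lys-TTT (5) and His-GTG (7). The name of a row gives the amino acid, the anticodon, the family of identical mature tRNAs and the gene copy within it, so that Lys-CTT-1-7 is copy 7 of Lys-CTT family 1.

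The animals were male Wistar Han rats, an outbred and non genetically modified strain, that entered the study at 7 weeks of age and stayed on their diet for 10 weeks. Urine was collected in metabolic cages, and cell-free and exosomal RNA were sequenced together as small RNA from 8 SD-fed and 8 HFD-fed rats, 1 library per rat. Kidney mRNA of 8 rats per diet, and kidney small RNA of 7 SD-fed and 8 HFD-fed rats, were also sequenced. The kidney small RNA table used here listed 0 nuclear tRNA rows, so the kidney level of these tRNAs was not analysed here, and neither were the glomerular lesions, which the sample labels do not give.

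A tRNA carries its amino acid to the ribosome and reads the codon through its anticodon. Cut tRNAs, often split in the anticodon loop by angiogenin or other nucleases, are among the most abundant small RNAs outside cells, including in urine. The tRNAs examined here differ in how they are finished: histidine tRNA receives an extra guanosine at its start from Thg1l, aspartate and histidine tRNAs carry queuosine in the anticodon, and the methyltransferase Trdmt1 acts on aspartate tRNA. The table counts reads per tRNA gene and keeps neither the length nor the position of a read, so fragments and whole tRNAs cannot be told apart in it.

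Sequencing depth differed with diet. The SD libraries held 282241 to 2570715 assigned reads (median 1323860) and the HFD libraries 963118 to 11932003 (median 5382860). Fewer than 1000000 reads were assigned in 4 SD libraries (rats 1244, 1247, 1248 and 1249) and in 1 HFD library (rat 1275), so that a diet effect and a depth effect can be separated only in part. How a read that matches several gene copies was counted was not stated in the sources used here. Some copies had almost the same number of reads, such as 99876 and 99831 for His-GTG-1-3 and 1-9 in SD rat 1245. The same reads were thus very likely entered at each such copy. Assigned reads, and shares of them, can therefore hold a read more than once. With only the highest copy of each family counted, histidine held 10.0% on average in place of 15.1%. Nuclear tRNA took 94.6% to 99.5% of the assigned reads of every library, and glycine tRNA alone took 75.5% on average. In bulk urine, fewer cells or vesicles of a source and less RNA from each cannot be told apart.

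The 4 amino acids together held 19.0% of the assigned reads of a urine library on average, and histidine made up most of it. The share of all 42 rows ranged from 11.9% to 45.9% over the SD libraries (median 21.6%) and from 7.90% to 21.9% over the HFD libraries (median 14.7%). Their mean was 23.5% ± 9.85 (SD, n = 8) in SD-fed and 14.5% ± 5.31 (n = 8) in HFD-fed rats, a difference of -8.92 percentage points. The diets overlapped, since 4 SD libraries lay above every HFD library and 3 HFD libraries below every SD library. SD rat 1247 alone reached 45.9%, with histidine at 40.8% and glycine at 38.9% of its reads. Without that library the difference was -5.71 points. The widest 95% Wilson interval of the total share was ± 0.155 points, which covers counting error only. It takes every assigned read as a separate one, so it is too narrow where a read was entered at several copies.

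Histidine took 9.37% to 40.8% of the reads of the SD libraries (median 15.3%) and 5.60% to 18.9% of the HFD libraries (median 12.0%). Lysine took 1.00% to 5.69% (median 2.42%) and 0.512% to 1.39% (median 1.17%), with 6 SD libraries above every HFD library. Valine took 0.724% to 3.99% (median 1.97%) and 0.254% to 1.97% (median 0.587%), with 4 SD libraries above every HFD library. All 8 HFD libraries lay below the SD median for lysine and for valine, and 5 of 8 did for histidine. Aspartate held the least, 0.215% to 1.93% (median 0.432%) on the SD and 0.109% to 0.886% (median 0.301%) on the HFD. These shares carry no test, and because glycine takes most reads, each share moves with the glycine reads of its library, which averaged 70.3% ± 13.9 on the SD and 80.8% ± 7.15 on the HFD.

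**Figure D1:**
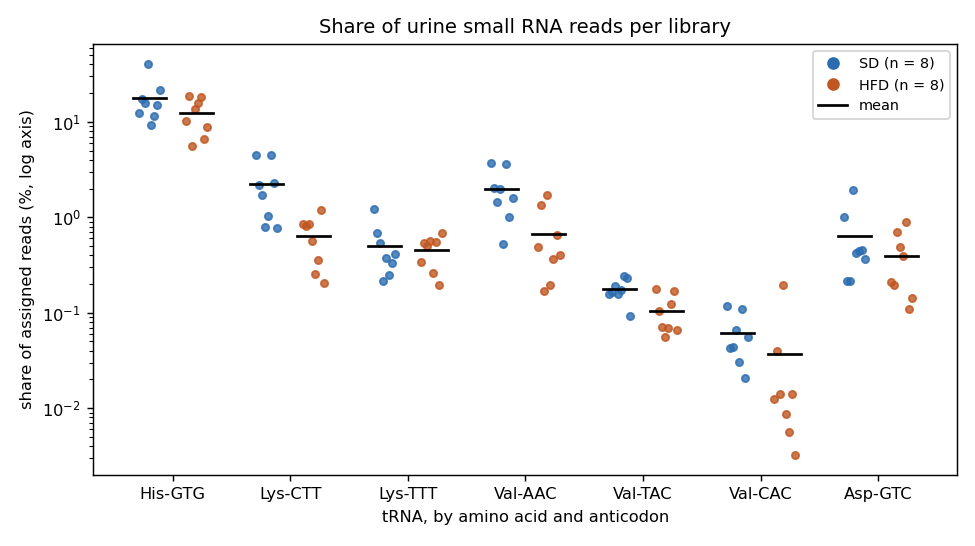
Share of assigned urine small RNA reads (%, log axis) held by each of the 7 anticodons, 1 point per library, 8 SD and 8 HFD libraries, with the mean as a black bar. Lys-CTT and Val-AAC sit lower in the HFD libraries (means 0.636% against 2.21%, and 0.665% against 1.98%), while the Lys-TTT means are 0.454% and 0.502%, and the diets overlap for every anticodon.

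Within a family, nearly all reads were assigned to a few copies. The mature tRNAs of a family are identical, so a read from within them cannot tell the copies apart. The level of a copy, here and below, is the reads assigned to it and need not be the output of that gene. All 7 His-GTG rows belong to 1 family. Copies 1-3, 1-6 and 1-9 had means of 89986, 89003 and 89932 normalized counts (read counts divided by the size factor of the library), whereas copy 1-10 had 539 and copies 1-2, 1-7 and 1-8 had 3.01, 1.19 and 3.14. Copies 1-6 and 1-9 held 97.1% to 100.1% of the value of copy 1-3 in every library. The same split appeared in Lys-CTT-1, where copies 1-2, 1-3 and 1-5 had 7528, 7748 and 7735 while copies 1-4, 1-6, 1-7 and 1-9 had 4.06, 19.9, 37.0 and 29.1.

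Over the 42 rows there were 19 families, of which 8 had more than 1 listed copy and together held 31 copies. Beside the highest copy of each, 9 copies lay within 10% of it, 2 lay between (Asp-GTC-2-9 at 51.4% and Asp-GTC-3-1 at 57.0% of the highest mean) and 12 lay under 10% of it. Rows that are nearly equal are no independent measurements, and are named together below. The coordinates of a row span 72 or 73 positions from start to end, so levels were compared between rows without a length correction. When only the highest copy of each family was counted, in all tRNA, the share of the 4 amino acids was 16.7% ± 7.18 on the SD and 9.94% ± 3.77 on the HFD (n = 8 each).

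**Figure D2:**
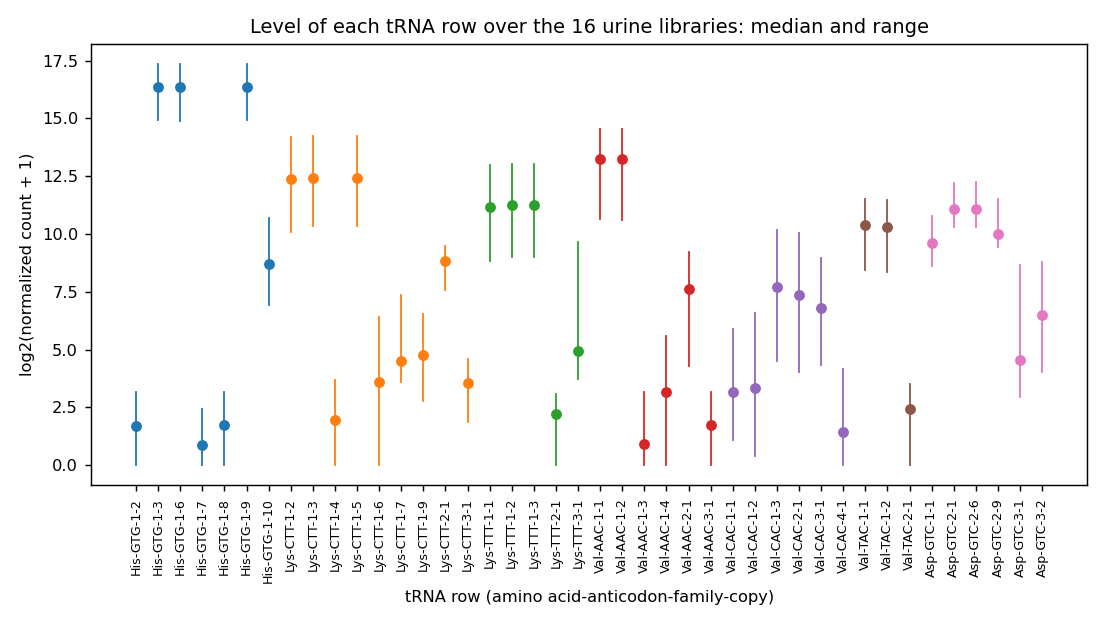
Level of each of the 42 rows as log2(normalized count + 1), with the median (point) and the range (line) over the 16 urine libraries, coloured by anticodon. Within His-GTG-1, Lys-CTT-1 and Val-AAC-1, a group of near-equal high copies stands far above the low copies, such as 89986 for His-GTG-1-3 against 3.01 for His-GTG-1-2.

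The genes lie on 12 chromosomes of the Rnor6.0 assembly, and the chromosomes with the most rows are 10 (8 rows), 2 (6 rows) and 17 (6 rows). Some near neighbours differed widely in the reads assigned to them and others were alike. The high copy His-GTG-1-6 (chromosome 3, 114310769 to 114310841) lies within 2194 bp of the low copies 1-7 and 1-8. On chromosome 10, the high copy Lys-CTT-1-5 (12852738 to 12852811) lies within 8503 bp of the low copies 1-6 and 1-7. On chromosome 1, Lys-TTT-1-1 and 1-2 and Val-TAC-1-1 and 1-2, each with a mean over 1000 normalized counts, share 6027 bp.

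The effect of the diet was examined with limma on log2(normalized count + 1), and fold changes are given on this log2 scale as HFD minus SD. A row was considered as DE if its Benjamini-Hochberg adjusted p was under 0.1 and it changed by more than 1 on that scale in either direction. Of the 42 rows tested, 5 were DE, and all 5 were lower in the HFD group: Val-CAC-1-2, Val-CAC-3-1, Val-AAC-2-1, Lys-CTT-1-7 and Asp-GTC-3-1. Over the whole urine table the rule called 73 of 500 rows (14.6%), 58 of them higher (11.6%) and 15 lower (3%). Of the 195 other nuclear tRNA rows, 4 were lower and 0 higher. The median log2 fold change was -0.39 over the 42 rows, -0.28 over the other nuclear tRNA rows and 0.06 over all rows. Below 0 were 29 of the 42 rows, 126 of the 195 other nuclear tRNA rows and 234 of the 500 rows. Before adjustment, 12 of the 42 had p under 0.05, all of them below 0, as did 117 of the 500 rows (23.4%). In 0 of the 42 rows did the diets separate completely, against 1 of 507 rows (0.197%) in the table. Of the 58 higher rows 57 were miRNAs, and the scaling between libraries is varied below.

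**Figure D3:**
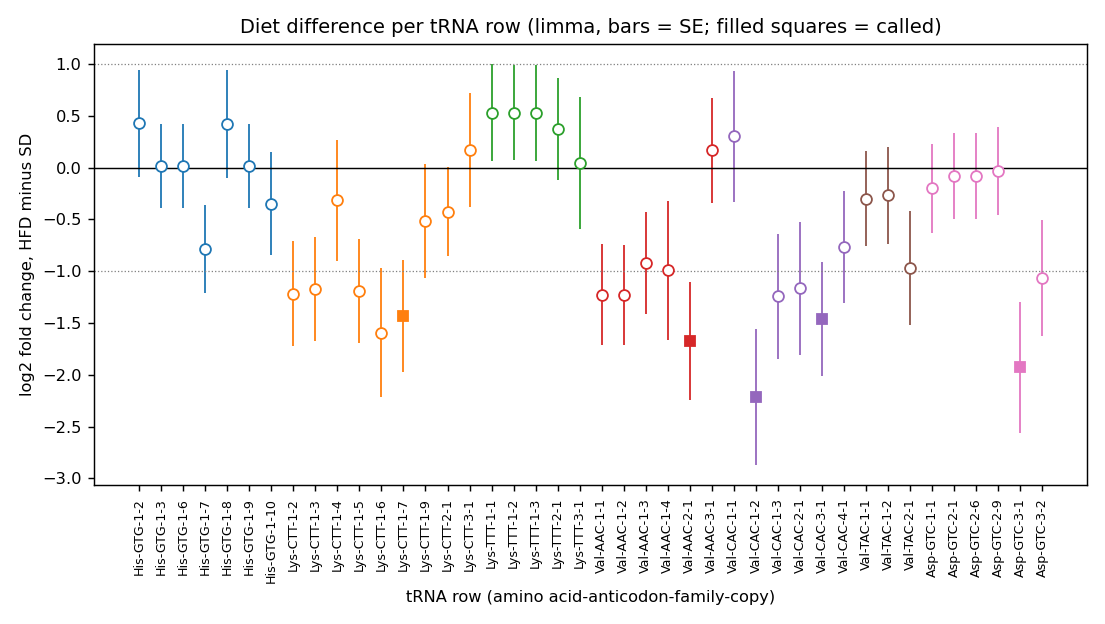
Log2 fold change of each of the 42 rows, HFD minus SD, from limma, with bars of 1 standard error. Filled squares are the 5 DE rows (-1.43 to -2.21), open circles are not called, and the dotted lines mark a log2 fold change of -1 and 1.

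The 15 valine rows held 3 of the 5 calls, and 13 of the 15 had a log2 fold change below 0. The main Val-AAC copies, 1-1 and 1-2, had near-equal values: Val-AAC-1-1 stood at 4211 to 23499 normalized counts on the SD (median 13994) and at 1608 to 17533 on the HFD (median 5836). Its low copies 1-3 and 1-4 had means of 1.86 and 12.5. For copies 1-1 and 1-2 the log2 fold change was -1.22 and -1.23 (standard error 0.48 for copy 1-1, adjusted p = 0.102 for both, limma), just short of the threshold, with 7 of 8 HFD libraries below the SD median. Val-AAC-2-1, of another family, on chromosome 17 (44549229 to 44549302), was lower: it ranged from 111 to 587 on the SD (median 342) and from 18.8 to 378 on the HFD (median 112). The diets differed by -1.68 (standard error 0.57, adjusted p = 0.0499).

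Val-CAC was scarcer than Val-AAC, with a summed mean of 845 against 28305 normalized counts on the SD, and 2 of its 6 rows were DE. Val-CAC-1-2 ranged from 1.29 to 95.3 on the SD (median 26.6) and from 0.321 to 18.5 on the HFD (median 3.99), with 6 SD libraries above every HFD library and SD rat 1245 at the lowest SD value. Its change of -2.21 on the log2 scale (standard error 0.66, adjusted p = 0.0257) was the largest of the 42, on a row whose mean was 20.9. Val-CAC-3-1 ranged from 74.2 to 493 (median 259) and from 18.9 to 237 (median 63.9), with all 8 HFD libraries below the SD median, and changed by -1.46 (standard error 0.55, adjusted p = 0.0843). The main copy of the anticodon, Val-CAC-1-3, ranged from 144 to 470 on the SD (median 298) and from 21.6 to 1146 on the HFD (median 101). HFD rat 1259 stood above every SD library there, and the difference of -1.24 (standard error 0.60) was not called (adjusted p = 0.206). Val-TAC-1-1, the main Val-TAC copy, ranged from 590 to 2219 on the SD (median 1516) and from 349 to 2959 on the HFD (median 1143), a log2 fold change of -0.30 (adjusted p = 0.733).

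The 14 lysine rows belong to 2 anticodons. Lys-CTT and Lys-TTT decode the lysine codons, with TTT carrying the more heavily modified wobble base. Of the 9 Lys-CTT rows, 8 had a log2 fold change below 0 (median -1.17), and of the 5 Lys-TTT rows all 5 were above 0 by limma (median 0.53), a direction that each of the 5 lost under some other settings. The high Lys-CTT copies 1-2, 1-3 and 1-5 were near equal. Lys-CTT-1-3 ranged from 1509 to 19450 on the SD (median 11343) and from 1292 to 13669 on the HFD (median 3673), with 3 SD libraries above every HFD library. The log2 fold change of the 3 copies was -1.17 to -1.21, and their adjusted p of 0.128 to 0.145 missed the threshold. SD rat 1247 was the lowest SD library and HFD rat 1274 the highest HFD library for all 3. Without SD rat 1247, HFD rat 1255 or HFD rat 1274, all 3 were DE, and the log2 fold change of copy 1-3 was then -1.53, -1.30 and -1.44. In these fits 68, 95 and 71 rows of the whole table were called.

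Among the low Lys-CTT copies, Lys-CTT-1-7 was DE: it ranged from 17.0 to 165 on the SD (median 41.4) and from 11.2 to 26.4 on the HFD (median 14.3), with 6 SD libraries above every HFD library. The diets differed by -1.43 (standard error 0.54, adjusted p = 0.0843). Lys-CTT-1-6, its neighbour, ranged from 7.29 to 84.7 (median 28.3) and from 0 to 25.2 (median 7.99), a difference of -1.59 (standard error 0.63) that was not called (adjusted p = 0.102). Its highest value came from SD rat 1244, where 1 read was worth 2.65 normalized counts.

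For Lys-TTT no row was called. The near-equal copies 1-1, 1-2 and 1-3 had means of 2876 to 3000, and Lys-TTT-1-2 ranged from 512 to 5194 on the SD (median 2558) and from 2016 to 8304 on the HFD (median 2413). HFD rat 1275, the HFD library with the fewest reads, stood above every SD library. The log2 fold change of these copies was 0.53 (adjusted p = 0.515 to 0.523), below 0 with equal library totals (-0.01 for each of the 3) and in the libraries of at least 1000000 reads (-0.34 to -0.36). Lys-TTT-2-1, a row of 0 to 7.54 normalized counts, changed by 0.38 (adjusted p = 0.69), and by -0.23 in the libraries of at least 1000000 reads. In Lys-TTT-3-1, which was singled out after its values were seen, SD rat 1248 stood at 794 while the other 15 libraries lay between 12.4 and 52.8. Its mean was 121 ± 272 (n = 8) on the SD and 38.7 ± 13.3 (n = 8) on the HFD. Its log2 fold change was 0.05 by limma, -1.74 by edgeR (adjusted p = 0.16), 0.53 by DESeq2 (adjusted p = 0.391) and 0.68 by limma without SD rat 1248, so no direction is given for it.

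The ratio of Lys-CTT to Lys-TTT within a library does not depend on the scaling. It ranged from 1.85 to 18.0 on the SD (median 3.45) and from 0.302 to 6.20 on the HFD (median 1.25). HFD rat 1274 stood at 6.20 and HFD rat 1275 at 0.302, the ends of the HFD range, and SD rat 1249 at 18.0. The groups overlapped, and the ratio was not tested because the rows were chosen with results of these data known.

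All 6 aspartate rows had a log2 fold change below 0, from -0.03 to -1.93, as had 126 of the 195 other nuclear tRNA rows. Of the 6 rows 1 was DE, and Asp-GTC-2-1 and 2-6 were near-equal copies. Asp-GTC-2-6, the main copy, ranged from 1476 to 4658 on the SD (median 2447) and from 1279 to 4800 on the HFD (median 1839), a difference of -0.08 (standard error 0.42, adjusted p = 0.925) that turned to 0.11 without SD rats 1244 and 1247. Asp-GTC-3-1, on chromosome X (9411116 to 9411188), ranged from 20.7 to 398 on the SD (median 66.4) and from 6.61 to 71.7 on the HFD (median 18.1), and changed by -1.93 (standard error 0.63, adjusted p = 0.0419). The 4 SD libraries under 1000000 reads held its 4 highest values, 92.6 to 398, whereas the other 4 SD libraries lay between 20.7 and 40.1, within the HFD range. In the libraries of at least 1000000 reads its log2 fold change was -0.55 (adjusted p = 0.72). The HFD library under 1000000 reads stood at 18.9.

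Histidine, the most abundant of the 4, had 0 of 7 rows called and 0 with an unadjusted p under 0.05. His-GTG-1-3 ranged from 30775 to 158604 on the SD (median 95046) and from 35576 to 167124 on the HFD (median 71282). The log2 fold change of copies 1-3, 1-6 and 1-9 was 0.01 to 0.02 (standard error 0.40, adjusted p = 0.98), and that of copy 1-3 was -0.52 with equal library totals and -0.64 in the libraries of at least 1000000 reads. For the sum of the 7 rows, 2 standard errors on either side of the estimate reached from -0.71 to 0.74, so changes within these bounds remain possible. A call also needed a change of more than 1 on the log2 scale, so smaller changes would go uncalled. The rare copies 1-2 and 1-8, at 0 to 8.01 normalized counts, were not called either, with log2 fold changes of 0.43 and 0.42 (adjusted p = 0.657 and 0.667) that lay below 0 by edgeR (-0.16 and -0.20).

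All copies of an anticodon were then summed, which gives 1 value per anticodon, and the whole table was fitted again with every nuclear tRNA summed in this way. Nearly equal rows were added together in these sums, so reads that they share enter more than once. With only the highest copy of each family summed, Val-AAC and Lys-CTT changed by -1.23 and -1.14 (limma adjusted p = 0.0484 and 0.0785). Val-AAC and Lys-CTT were DE, 2 of the 7 sums, where the rule called 69 of 310 rows (22.3%), 9 of them lower (2.9%), and 2 of all 47 anticodon sums. Val-AAC ranged from 8535 to 47461 normalized counts on the SD (mean 28305 ± 14104, n = 8) and from 3215 to 35455 on the HFD (mean 14347 ± 11269, n = 8). It changed by -1.23 (standard error 0.46, adjusted p = 0.0486). Lys-CTT ranged from 5599 to 58211 (mean 32148 ± 17911) and from 3894 to 41366 (mean 14949 ± 12206), and changed by -1.18 (standard error 0.46, adjusted p = 0.0615). For both sums 7 of 8 HFD libraries lay below the SD median, and 3 SD libraries lay above every HFD library.

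The other 5 sums were not called. Val-CAC had the same size of difference (-1.23, standard error 0.57, adjusted p = 0.135), with HFD rat 1259 at 2352 against 60.8 to 1060 in the other HFD libraries. Val-TAC changed by -0.29 (adjusted p = 0.74) and Asp-GTC by -0.11 (adjusted p = 0.873), the latter turning to 0.12 in the libraries of at least 1000000 reads. Lys-TTT changed by 0.50 (adjusted p = 0.507) and His-GTG by 0.02 (adjusted p = 0.973), and these turned to -0.03 and -0.52 with equal library totals. Whether Lys-CTT and Lys-TTT, or Val-AAC and Val-TAC, differed from each other in their response to diet was not tested.

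The calls were also looked at by library depth. In the 4 SD and 7 HFD libraries with at least 1000000 reads, a comparison chosen after seeing the data, 0 of the 42 rows and 0 of the 7 sums were DE by limma, where 14 of 499 rows of the table were (2.81%). In those libraries 10 of the 42 rows had an unadjusted p under 0.05, 9 of them below 0. The share of all rows under that limit was not counted for this fit, so the 10 have no background beside them. The median log2 fold change of the 42 rows was -0.64. The differences of the 2 called sums were as large there as in all libraries, -1.62 for Val-AAC and -1.44 for Lys-CTT (adjusted p = 0.15 for both). This comparison has 11 libraries in place of 16, so that depth and the number of samples changed together. Of the 5 called rows, Val-AAC-2-1 stood at -2.20 there, Val-CAC-3-1 at -1.69, Val-CAC-1-2 at -1.29, Lys-CTT-1-7 at -1.26 and Asp-GTC-3-1 at -0.55. The part of depth in these results was not tested further.

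**Figure D4:**
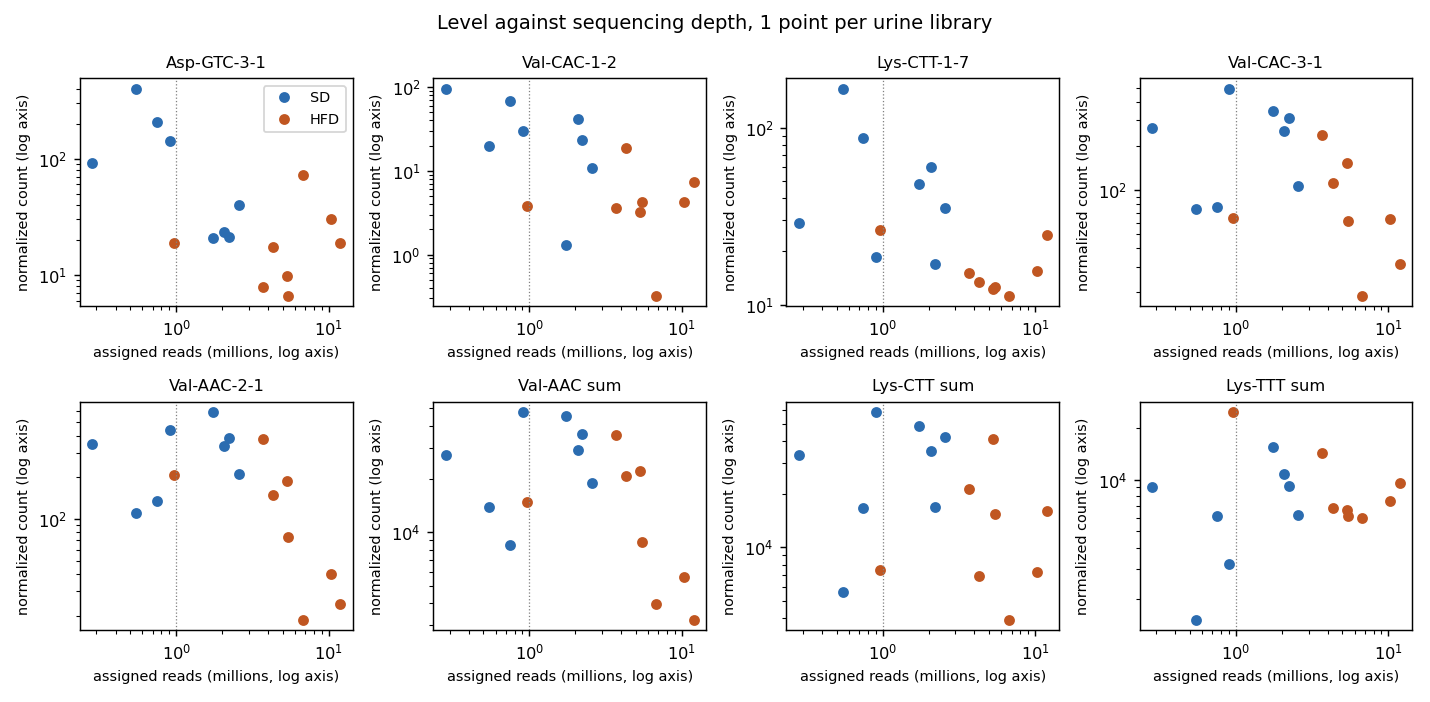
Normalized count (log axis) of the 5 DE rows and of 3 anticodon sums against the assigned reads of the library (log axis), 1 point per library, 8 SD and 8 HFD, with a dotted line at 1000000 reads. For Asp-GTC-3-1 the 4 SD libraries left of the line hold the highest values (92.6 to 398), while the Lys-CTT sum of the SD libraries spans 5599 to 58211 left of the line and 16940 to 48863 right of it.

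Single libraries also decided calls. Val-CAC-1-2, a row of 1 to 66 reads per library, stayed DE when any of the 16 libraries was left out. Asp-GTC-3-1 was lost without SD rat 1247 or 1249 (-1.57 and -1.78, limma adjusted p of 0.101 and 0.103). Val-AAC-2-1 and the Val-AAC sum were each lost without SD rat 1245 or 1249 or HFD rat 1256, 1267 or 1271, with log2 fold changes of -1.37 to -1.58 and -0.99 to -1.11. The Lys-CTT sum was lost without SD rat 1245, 1246, 1249 or 1250 or HFD rat 1259, 1267, 1271 or 1275 (-0.96 to -1.12). Lys-CTT-1-7 was lost in 9 of the 16 such fits (-1.16 to -1.48) and Val-CAC-3-1 in 10 (-1.20 to -1.44). The direction of these 7 results was lower in the HFD group in every fit that was run.

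The scaling moved the sizes and the number of calls. With equal library totals the median of all rows of the anticodon table shifted by -0.37, and Val-AAC and Lys-CTT stood at -1.77 and -1.72, or -1.40 and -1.36 relative to that shift. Of the 42 single rows, 10 were then DE, where 53 rows of the whole table were. The share of higher rows among all calls dropped from 79.5% to 52.8%. Scaling to the reads other than nuclear tRNA gave 13 of 42 (70 in the whole table) and a share of 38.6%. The count tests on the whole reads recovered from the values gave 7 by edgeR (66 of 500 rows, 13.2%, 62.1% of them higher) and 9 by DESeq2 (92 of 500, 18.4%, 68.5% higher). The calls that these settings added were mainly the high copies of Lys-CTT-1 and Val-AAC-1. Of the 5 called rows, Val-AAC-2-1 was not called by edgeR (-1.36, adjusted p = 0.15). Val-CAC joined the called sums with equal library totals (-1.77, limma adjusted p = 0.0816).

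**Figure D5:**
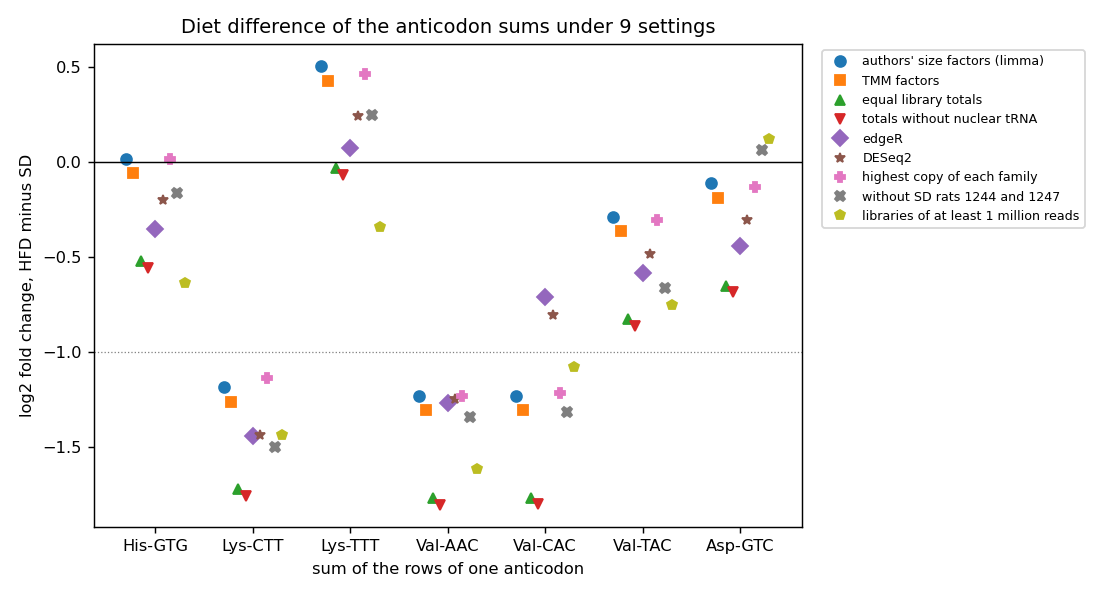
Log2 fold change of the 7 anticodon sums, HFD minus SD, under 9 settings (limma with the size factors of the authors and 8 alternatives). Val-AAC and Lys-CTT lie below -1 in all 9, Val-CAC between -1.80 and -0.71, and Lys-TTT, His-GTG and Asp-GTC fall on both sides of 0.

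The enzymes that charge, modify or cut these tRNAs were looked at in the kidney mRNA of the same diets, where 26 genes of a list of charging, modification and cleavage genes were measured. Of these, 0 were DE (adjusted p under 0.05 and a change of more than 1 on the log2 scale), as were 0 of all 13673 genes tested (0%). By unadjusted p under 0.05 there were 0 of 26, against 593 of 13673 (4.34%), and the smallest unadjusted p in the list was 0.134. The cytosolic synthetases for these amino acids had nearly equal means: Vars, for valine, 674 and 706 normalized counts (SD and HFD), Dars, for aspartate, 1239 and 1337, Kars, for lysine, 1595 and 1634, and Hars, for histidine, 968 and 990. Their log2 fold changes lay between 0.04 and 0.14, and those of the mitochondrial Vars2 and Hars2 were -0.06 and 0.08.

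Among the modifying enzymes, Qtrt1, a subunit of the enzyme that inserts queuosine, stood at 101 on the SD and 75.6 on the HFD (log2 fold change -0.39, standard error 0.44, adjusted p = 0.919). Trdmt1 stood at 55.8 and 57.8, Thg1l at 158 and 145, and Nsun2, a tRNA cytosine methyltransferase, at 1000 and 1116. Rnh1, the inhibitor of angiogenin and related nucleases, stood at 1801 and 1592 (log2 fold change -0.15, adjusted p = 0.919). Angiogenin itself (symbols Ang and Ang1) was not analysed here. The standard errors over the list ranged from 0.09 to 0.56. Changes well above 1 standard error would also go uncalled, since a call needed a change of more than 1 on the log2 scale.

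Mitochondrial tRNAs are annotated in these tables without their amino acid, so they were compared only as a class. Of the 16 mitochondrial tRNA rows in urine, 0 were DE and 1 had an unadjusted p under 0.05, with a median log2 fold change of -0.28. Of the 22 in kidney, 0 were DE and 3 had an unadjusted p under 0.05, with a median of -0.17, where 0 of 812 kidney small RNA rows were DE (0%).

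The urine was checked against miRNAs that mark its possible cell sources. The markers of red cells (miR-451, miR-144 and miR-486), white cells (miR-223 and miR-142) and liver (miR-122) had 0 rows in the table used here. The 7 rows of kidney tubule miRNAs (miR-192, miR-194, miR-30a and miR-10a) summed to 108 to 987 normalized counts on the SD (median 481) and 639 to 3390 on the HFD (median 1569). The 4 rows of epithelial miRNAs (miR-205, miR-200c and miR-203) summed to 20.8 to 1254 (median 70.3) and 97.5 to 521 (median 243). Both sums were higher at the median in HFD-fed rats, as were nearly all miRNAs: 123 of the 125 tested had a log2 fold change above 0 (median 1.37). Within the epithelial set, miR-200c-3p had the lower mean on the HFD, 121 ± 94.2 against 181 ± 432, with an SD library at 1249. The part of these sources in the tRNA differences was not tested.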

How the data were processed

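The deposited signal values were the normalized counts of the authors, per gene or small RNA and library. Per the labels and the methods of the study, reads were trimmed with Cutadapt, small RNA was mapped and counted with Subread against Rnor6.0, mRNA was quantified with Salmon, and DESeq2 (1.24.0) was used. Columns with the authors' own fold changes and p-values were not used. In the small RNA of urine, each library's values were whole multiples of a step within 0.01 read (100% of the values), which gave back whole reads. The kidney mRNA values showed no such step, so their depth is unknown.

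Urine rows with a mean of at least 1, and kidney rows with a mean of at least 5, were fitted by diet with limma (3.58.1, trended variance, R 4.3.3) on the log2 scale after a pseudocount of 1 was added, which understates changes of low rows. Two-sided p-values were adjusted (Benjamini-Hochberg) over each table, and a call needed an adjusted p under 0.1 in urine or 0.05 in kidney with an absolute log2 fold change over 1. edgeR (4.0.16) and DESeq2 (1.42.0) were run on the recovered reads as alternatives, beside pseudocounts of 0.5 and 5, other filters, other scalings, array weights and leaving out libraries. The fits were also run on simulated counts with known changes. Each row was drawn on its own there, without reads shared between copies, and no result of that run is used here.

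Named rows were every called row, the 6 per direction with the smallest unadjusted p among the others, and the highest row of each anticodon. The members, lists and rules were chosen with earlier results of these data known. Each library came from a different rat, and p-values measure the spread between rats. Wilson intervals and read numbers cover counting error only, and take every assigned read as a separate one.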

Additional observations from a re-analysis of the deposited data

Results flagged for a closer look

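Within each diet, 1 library was far from the other 7 (a gap of more than 0.526 of the whole range, Dixon's 95% limit for 8 samples) in 18 of 68 groups of values looked at. The limit would give about 3.4 for normally distributed values. It was applied to counts and shares without a log, and all 18 flagged values were the highest of their group. The excess over 3.4 is therefore no measure against chance. Near-equal copies and their sums repeat each other among the 18.

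SD rat 1247 stood apart by composition. Its share of the 4 amino acids was 45.9% (other SD libraries 11.9% to 24.7%), its histidine share 40.8% (9.37% to 21.4%) and its aspartate share 1.93% (0.215% to 1.01%). Its Asp-GTC sum was 13714 normalized counts (4433 to 8499) and its Asp-GTC-2-6 level 4658 (1476 to 2842).

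HFD rat 1274 was high in Lys-CTT, with a sum of 41366 (other HFD libraries 3894 to 21365), Lys-CTT-1-3 at 13669 (1292 to 7078) and Lys-CTT-1-5 at 13640 (1291 to 7050). HFD rat 1275, the shallowest HFD library, was high in Lys-TTT, with a sum of 24679 (5973 to 14348), Lys-TTT-1-1 at 8018 (1924 to 4681), Lys-TTT-1-2 at 8304 (2016 to 4821) and Lys-TTT-1-3 at 8297 (2009 to 4818). HFD rat 1259 was high in Val-CAC, with a sum of 2352 (60.8 to 1060), Val-CAC-1-3 at 1146 (21.6 to 414) and Val-CAC-1-2 at 18.5 (0.321 to 7.33). Lys-TTT-3-1 stood at 794 in SD rat 1248 (12.4 to 46.9). Lys-CTT-1-6 stood at 84.7 in SD rat 1244 (7.29 to 37.7), and Asp-GTC-3-1 at 71.7 in HFD rat 1271 (6.61 to 30.6).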

How the results depend on the processing

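Of the 42 rows, 5 were called with a pseudocount of 0.5 or 5, where 71 and 62 rows of the whole table were. The count was also 5 without a filter (72 in the whole table) and with equal rows counted once (70), and 7 by edgeR (66). It was 8 with a filter at a mean of 5 (77 in the whole table), 11 with TMM factors (79) and 10 with equal library totals (53). With totals without nuclear tRNA it was 13 (70), with array weights 10 (99) and by DESeq2 9 (92). Leaving out 1 library at a time gave 2 to 12 called rows and 0 to 3 called anticodon sums. A pair of settings was chosen after seeing the data. Without SD rats 1244 and 1247, the 2 libraries with the fewest reads, 8 rows were called (74 in the whole table). In libraries of at least 1000000 reads 0 rows were called (14 in the whole table) and 0 sums (15 in the anticodon table). Of 838 values of single rows and sums under the alternatives, 649 kept their direction and side of the threshold, and 71 changed sign, all in results that were not called.

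With equal library totals, Lys-TTT-1-1, 1-2 and 1-3 stood at -0.0064, -0.0067 and -0.010, the Lys-TTT sum at -0.035, and His-GTG-1-3 and the His-GTG sum at -0.52 each. With totals without nuclear tRNA, Lys-TTT-1-1, 1-2 and 1-3 stood at -0.041, -0.042 and -0.045, Lys-TTT-2-1 at -0.15, the Lys-TTT sum at -0.070, and His-GTG-1-3 and the His-GTG sum at -0.56 each. In libraries of at least 1000000 reads, Lys-TTT-1-1, 1-2 and 1-3 stood at -0.36, -0.34 and -0.34, Lys-TTT-2-1 at -0.23, the Lys-TTT sum at -0.34, His-GTG-1-2, 1-3 and 1-8 at -0.17, -0.64 and -0.12, the His-GTG sum at -0.64, Asp-GTC-2-6 at 0.20 and the Asp-GTC sum at 0.12. By edgeR, His-GTG-1-2, 1-3 and 1-8 stood at -0.16, -0.11 and -0.20 and the His-GTG sum at -0.35. By DESeq2 the same stood at -0.064, -0.027, -0.11 and -0.20. With TMM factors His-GTG-1-3 stood at -0.061 and its sum at -0.062, and with array weights at -0.32 and -0.34, with Asp-GTC-2-6 at 0.068. Without SD rats 1244 and 1247, His-GTG-1-3 and its sum stood at -0.16 each, Asp-GTC-2-6 at 0.11 and the Asp-GTC sum at 0.063. Leaving out 1 library at a time gave -0.18 to 0.18 for His-GTG-1-3 and for its sum, -0.23 to 0.062 for Asp-GTC-2-6 and -0.26 to 0.023 for the Asp-GTC sum. Lys-TTT-3-1 stood at -0.015 with a pseudocount of 5, -0.030 with TMM factors, -0.48 with equal library totals, -0.51 with totals without nuclear tRNA, -1.74 by edgeR and -0.16 to 0.68 leaving out 1 library. The cause was not tested.

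The difference in share was -10.6 to -5.71 points leaving out 1 library, and in every setting run it moved from -8.92 by less than the SD between libraries. Without HFD rat 1259, 1 of 16 mitochondrial tRNA rows in urine was called, where 91 rows of the whole table were. Over all libraries left out the count was 0 to 1. The kidney counts stayed at 0. No paired analysis was possible because the SD and HFD groups are different rats that share no number.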
